A study of Mus musculus with 8 samples.

Results

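The genes described here are 38 named components of autophagy and mitophagy, found on the arrays as the non-control probes that carry their gene names. Of the 38, 37 had a probe, with 77 probes and 86 spots of the 41174 probes in all. Atg9a was not found under that name, and the single probe of Atg9b was not well above background on any of the 8 arrays. The other 36 genes were tested among 16016 genes, through 69 probes of the 24488 that were well above background on at least 4 arrays. All 36 had a tested probe that was well above background on all 8 arrays.

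Autophagy encloses cytoplasm in a double membrane, the autophagosome, which fuses with the lysosome for digestion, and mitophagy is the same route taken by mitochondria. A kinase complex starts it, a lipid kinase complex marks the membrane with phosphatidylinositol 3-phosphate, a pair of ubiquitin-like conjugation systems attaches Atg8 proteins (LC3 and GABARAP) to the membrane, and cargo receptors bind what is to be enclosed. Skeletal muscle relies on it in fasting and disuse and in the clearing of mitochondria, and the transcription factor TFEB drives many genes of its lysosomal end.

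The muscle was the tibialis anterior, a mostly fast-twitch muscle at the front of the shin, from male mice of the C57BL/6 strain at 8 weeks of age. The control group was 4 Prep1f/+ mice, which by that notation carry a floxed and a wild-type Prep1 allele, and the other group was 4 Prep1deltaSM mice, in which Prep1 was removed from skeletal muscle. The promoter that drove the recombination, and whether the control mice carried it, are not given in the sources used here. Prep1 is the protein of Pknox1, a homeodomain transcription factor, and the comparison asks what its loss in muscle does to the RNA of the tissue.

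Values are log2 signals relative to the 75th percentile of the array, so 0 is that percentile, and differences are Prep1deltaSM minus Prep1f/+ with their standard error (SE) from limma's moderated fit over all genes. Adjusted p-values are Benjamini-Hochberg values over all 16016 genes, and a probe's level is not comparable with that of another probe. Spots well above background numbered 23787 to 27123 of 43379 per array, and each of 4 slides held an array of each group. Prep1f/+ replicates 1 and 4 stood apart from the other 6 arrays on the first principal component (24.4% of the variance). Each sample title has its own number, taken here as the name of a mouse, and the labels say no more of the mice. The p-values set the difference between groups against the spread within them, over these 8 muscles. Precision is limited by having 4 arrays a group.

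Pknox1 itself read -0.09, -0.31, -0.21 and -0.51 in Prep1f/+ replicates 1 to 4 and -1.84, -2.08, -2.28 and -1.96 in Prep1deltaSM replicates 1 to 4. All 4 Prep1deltaSM values lay far below all 4 Prep1f/+ values, as the labels would have it. The difference was -1.76 ± 0.13 (adjusted p = 0.0072 by limma), and no other gene passed the threshold of 0.05, so that 0.00624% of genes were called. The call was lost with slide as a block (adjusted p = 0.062) and when an array was left out that held Prep1f/+ replicate 2 (0.0656), Prep1f/+ replicate 3 (0.0641) or Prep1deltaSM replicate 2 (0.0738). All 10 skeletal muscle markers were well above background on all 8 arrays, among them Acta1, the actin of skeletal muscle.

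None of the 36 autophagy and mitophagy genes passed the adjusted threshold. At an unadjusted p under 0.05, 2 were higher (Atg16l2 and Tfeb) where 5.54% of all genes were, and 5 were lower (Uvrag, Atg5, Atg12, Wipi1 and Ambra1) where 10.3% were. Differences ran from -0.54 for Uvrag to 0.37 for Atg16l2 with a median of -0.09, beside a median of -0.07 over all genes. By sign, 26 of the 36 were lower, where 62.7% of all genes were, and 20 lay below the median of all genes, where 50% do. The list as a whole therefore sat close to the background of the array. In whole tissue, fewer cells of a type and less RNA per cell cannot be told apart.

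The counts at an unadjusted p under 0.05 moved with the scaling and with single arrays. They were 4 higher and 3 lower after quantile normalization, where 7.01% and 8.17% of all genes were. After normexp with quantile normalization they were 4 and 4 (6.90% and 8.72% of all genes), and after median centring 1 and 4 (4.56% and 9.95%). With a Prep1f/+ array left out, lower genes numbered 3 (replicate 1 or 2 out), 4 (replicate 3) and 8 (replicate 4), and higher genes 3 (replicate 1 or 2) and 1 (replicate 3 or 4). With a Prep1deltaSM array left out, lower genes numbered 1 (replicate 1), 4 (replicate 2), 2 (replicate 3) and 5 (replicate 4), and higher genes 2, 0, 1 and 1 in that order. In these 8 fits, 7.35% to 11.5% of all genes were lower at that p and 4.0% to 5.79% were higher.

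**Figure D1:**
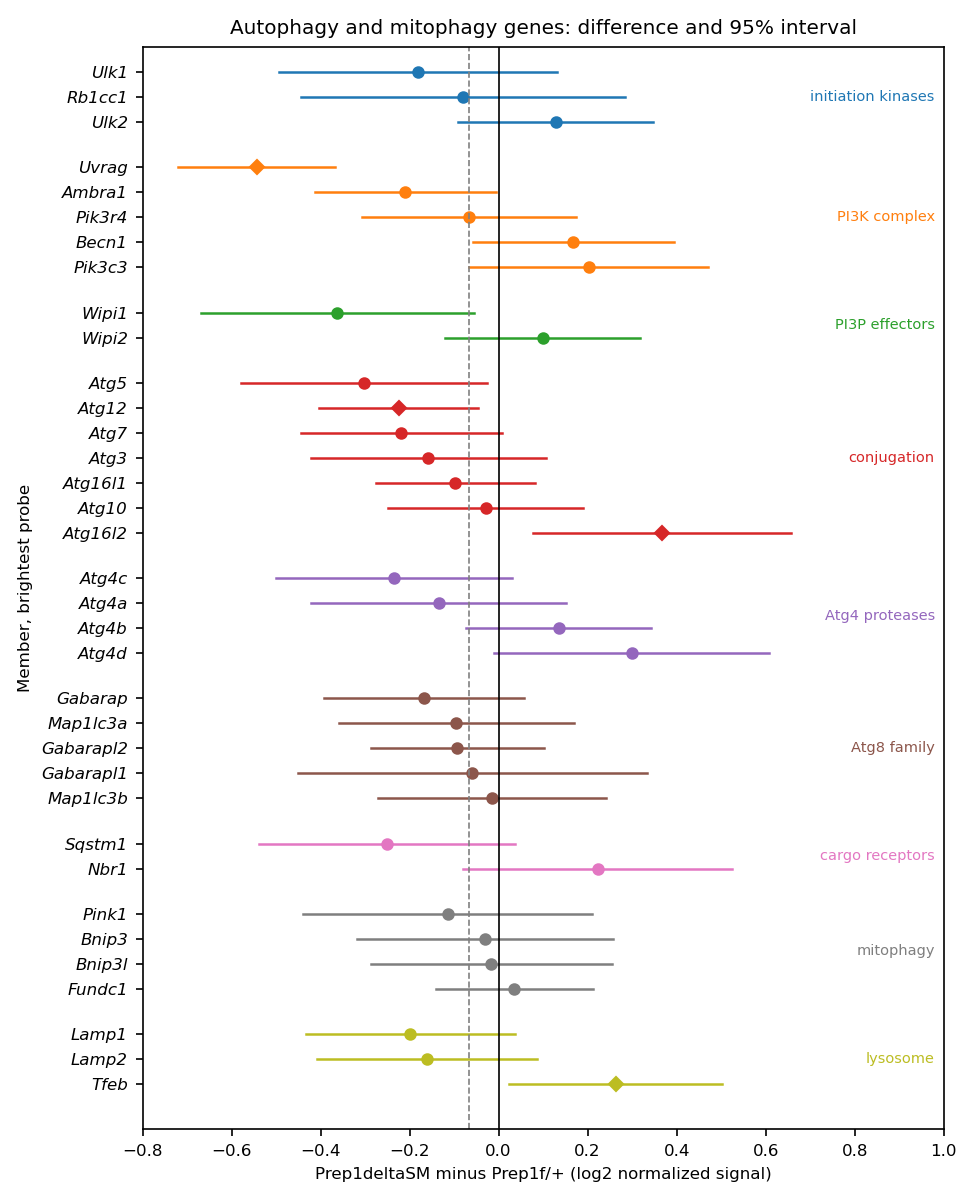
Difference between Prep1deltaSM and Prep1f/+ muscle for 35 of the tested autophagy and mitophagy genes, by role, on the log2 scale. Points are limma estimates from the brightest probe (4 arrays a group), lines are 95% confidence intervals, diamonds mark genes whose groups do not overlap, and the dashed line is the median of all 16016 genes (-0.07). Uvrag lies furthest from 0, and most intervals cross it.

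The 4 values of each group did not overlap in 4 genes, Uvrag and Atg12 (lower) and Atg16l2 and Tfeb (higher), where 10.5% of all genes were apart (6.74% lower, 3.72% higher). Without Prep1f/+ replicate 4 this count was 12 genes (18.0% of all genes), without Prep1deltaSM replicate 4 it was 8 (16.9%), and without Prep1f/+ replicates 1 and 4 it was 16 (31.4%). Prep1deltaSM replicate 1 held the lowest value of the 8 arrays in 13 of the 36 genes and Prep1f/+ replicate 4 in 11. Prep1deltaSM replicate 2 held the highest value in 10 and Prep1f/+ replicate 3 in 9. Within slides, 8 genes were lower on all 4 slides (18.2% of all genes were) and 4 were higher on all 4 (8.59% were).

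**Figure D2:**
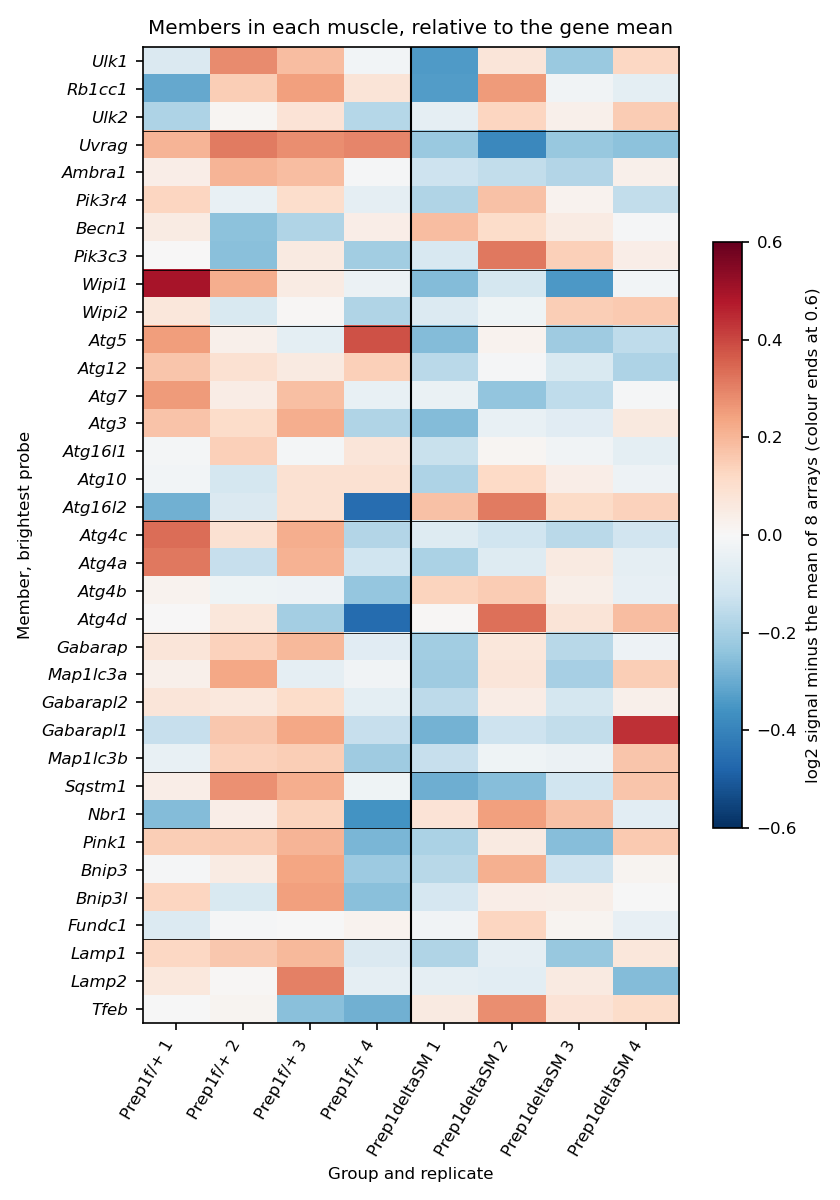
Each of 35 of the genes in each of the 8 muscles, as the log2 signal of its brightest probe minus its mean over the 8 arrays; red is above and blue below that mean, rows are grouped by role, and the vertical line separates the genotypes. Uvrag is the row that separates the groups most plainly, and Prep1deltaSM replicate 1 holds the lowest value in 13 rows.

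Autophagy starts with the Ulk kinases and their scaffold Rb1cc1 (FIP200). Ulk1, the principal starting kinase in most cells, read 5.03, 5.40, 5.30 and 5.10 in Prep1f/+ and 4.78, 5.19, 4.90 and 5.25 in Prep1deltaSM. Its lowest values were in Prep1deltaSM replicates 1 and 3, the groups overlapped, and the difference was -0.18 ± 0.14 (adjusted p = 0.536). A second Ulk1 probe differed by -0.19 ± 0.12.

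Ulk2, the close relative of Ulk1, was read by 3 probes that disagreed. The brightest differed by 0.13 ± 0.10 and the dimmest by -0.08 ± 0.12. The third read -0.26, -0.51, -0.47 and -0.65 in Prep1f/+ and 0.02, 0.10, -0.12 and -0.10 in Prep1deltaSM. All 4 Prep1deltaSM values of that probe lay above the Prep1f/+ values, a difference of 0.45 ± 0.11 (adjusted p = 0.112 over 24488 probes, limma). One more Ulk2 probe was not well above background on any array.

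Rb1cc1, which holds the kinase complex together, had 6 probes. The 4 brightest differed by -0.09 to 0.01, the next by 0.30 ± 0.14, and the dimmest (A_52_P383890, mm9 chr1:6218062-6218121, plus strand) read -1.48, -1.22, -1.36 and -1.33 in Prep1f/+ and -0.74, -0.67, -0.92 and -0.81 in Prep1deltaSM. The groups of this probe were apart by more than the spread within either, with a difference of 0.56 ± 0.10 (adjusted p = 0.0971 over all probes). It lies upstream of the other 5 along the plus strand, on which the gene's probes run.

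Next comes the lipid kinase complex, in which Pik3c3 (VPS34) is the kinase, Pik3r4 its regulatory subunit, Becn1 (Beclin 1) the scaffold, and Uvrag and Ambra1 are partners of Beclin 1. Uvrag defines the form of the complex that works on endosomes and in autophagosome maturation. Uvrag read 1.80, 1.91, 1.87 and 1.89 in Prep1f/+ and 1.37, 1.21, 1.36 and 1.35 in Prep1deltaSM. The Prep1f/+ muscles lay close together, and every Prep1deltaSM muscle was far below them.

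The Uvrag difference was -0.54 ± 0.08, with a 95% confidence interval of -0.72 to -0.37, a signal 1.46-fold lower. It ranked 12 of 16016 by p (unadjusted p = 8.27e-05, adjusted p = 0.0897, limma). The exact two-sided permutation p over 70 assignments was 0.0286, the smallest they can give. Every gene whose groups do not overlap has this p, as Atg12, Atg16l2 and Tfeb did, so it only restates that separation. On slides 1 to 4 the differences were -0.54, -0.67, -0.45 and -0.52, so the muscle of the Prep1deltaSM mouse was lower on each slide. Uvrag passed the threshold with normexp and quantile normalization (adjusted p = 0.0381, limma) and with a trended robust fit (0.0339). Of all 16016 genes, 26 passed with the former and 20 with the latter, where 1 passed in the main fit. Over all 18 alternatives the adjusted p of Uvrag ran from 0.0339 to 0.345.

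The Uvrag probe with this difference (A_51_P402536) lies at mm9 chr7:106035448-106035507, minus strand. A second, dim probe (A_52_P153265), whose letters are spread over chr7:106260875-106266742 and so lie on more than 1 exon, read -2.76, -3.12, -3.0 and -2.96 in Prep1f/+ and -2.81, -2.97, -3.13 and -3.11 in Prep1deltaSM. Its groups overlapped throughout, with a difference of -0.05 ± 0.11, and the mean of both probes differed by -0.29. Whether either probe lies in a coding exon or in a UTR was not settled, since no annotation of that build was used here.

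Uvrag is shown here because it is the member with the smallest p. Tfeb is shown because it is another of the 4 genes with groups apart and it too has promoters with TGACAG, a core sequence bound by PREP and MEIS factors. Only promoters of these genes that hold the motif were printed, and the Tfeb starts are numbered among those printed. Each is the 250 bases before a RefSeq transcription start in GRCm38.p6, written along the strand of the gene, with that motif in capitals.
Uvrag, chr7:99141145-99141394, minus strand: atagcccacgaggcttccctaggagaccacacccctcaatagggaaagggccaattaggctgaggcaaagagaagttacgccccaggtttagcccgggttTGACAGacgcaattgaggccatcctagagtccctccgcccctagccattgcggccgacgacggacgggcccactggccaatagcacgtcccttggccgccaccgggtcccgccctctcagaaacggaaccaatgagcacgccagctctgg
Tfeb, first start, chr17:47736787-47737036, plus strand: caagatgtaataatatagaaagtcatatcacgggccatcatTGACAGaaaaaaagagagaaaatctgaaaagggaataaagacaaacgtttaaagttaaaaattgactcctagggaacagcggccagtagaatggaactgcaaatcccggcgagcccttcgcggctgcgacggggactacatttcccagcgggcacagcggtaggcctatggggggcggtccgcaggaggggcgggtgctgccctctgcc
Tfeb, second start, chr17:47785494-47785743, plus strand: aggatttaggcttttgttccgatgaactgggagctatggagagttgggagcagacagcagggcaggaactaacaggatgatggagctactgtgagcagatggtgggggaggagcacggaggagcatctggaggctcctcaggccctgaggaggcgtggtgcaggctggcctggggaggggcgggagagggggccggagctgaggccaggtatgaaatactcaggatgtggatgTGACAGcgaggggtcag

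In Uvrag the motif starts 150 bases before the transcription start, and in Tfeb 209 and 17 bases before the respective starts. Promoters of 250 bases before to 50 after the start were found for 30 of the 38 genes. Searched on both strands, TGACAG was in a promoter of 8 of the 30 (Atg4a, Atg5, Atg9a, Uvrag, Map1lc3b, Gabarapl2, Ambra1 and Tfeb), or 26.7%, beside 21.6% of 27025 genes and 19.2% of 32851 promoters. Neither Atg12 nor Atg16l2, the other genes with groups apart, is among the 8, and no promoter was found for Atg12. The TGACAG matches are letters in a window and show no binding.

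For the targets of TFEB, the E-box CACGTG was in promoters of 5 of the 30 genes (Atg3, Atg5, Atg7, Bnip3 and Lamp1), or 16.7%, beside 8.09% of all genes. This share too is a description.

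Ambra1 read 1.49, 1.66, 1.64 and 1.45 in Prep1f/+ and 1.33, 1.31, 1.28 and 1.49 in Prep1deltaSM. Prep1deltaSM replicate 4 lay among the Prep1f/+ muscles and the other 3 lay below them all, with a difference of -0.21 ± 0.09 (adjusted p = 0.304). Its dim second probe differed by 0.19 ± 0.18.

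Becn1 read 0.90, 0.61, 0.67 and 0.89 in Prep1f/+ and 1.03, 0.96, 0.90 and 0.84 in Prep1deltaSM. Values overlapped through the high Prep1f/+ replicates 1 and 4, and the difference was 0.17 ± 0.10 (adjusted p = 0.43). Pik3c3 differed by 0.20 ± 0.12 and was higher in the Prep1deltaSM muscle on all 4 slides, while Pik3r4 differed by -0.07 ± 0.11. The 5 genes of this complex therefore had both signs, with Uvrag, Ambra1 and Pik3r4 lower and Becn1 and Pik3c3 higher.

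Wipi1 and Wipi2 bind the lipid that the kinase makes and bring the conjugation machinery to the membrane. Wipi1 read 3.68, 3.41, 3.24 and 3.16 in Prep1f/+ and 2.93, 3.08, 2.85 and 3.17 in Prep1deltaSM. The groups met only where Prep1deltaSM replicate 4 just exceeded Prep1f/+ replicate 4, and the Prep1deltaSM muscle was lower on all 4 slides. The Wipi1 difference was -0.36 ± 0.13 (adjusted p = 0.256), and a second probe differed by -0.14 ± 0.13. The 4 probes of Wipi2 differed by 0.10, -0.02, -0.10 and 0.11 with SEs of 0.10, 0.09, 0.10 and 0.16, and all their groups overlapped.

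**Figure D3:**
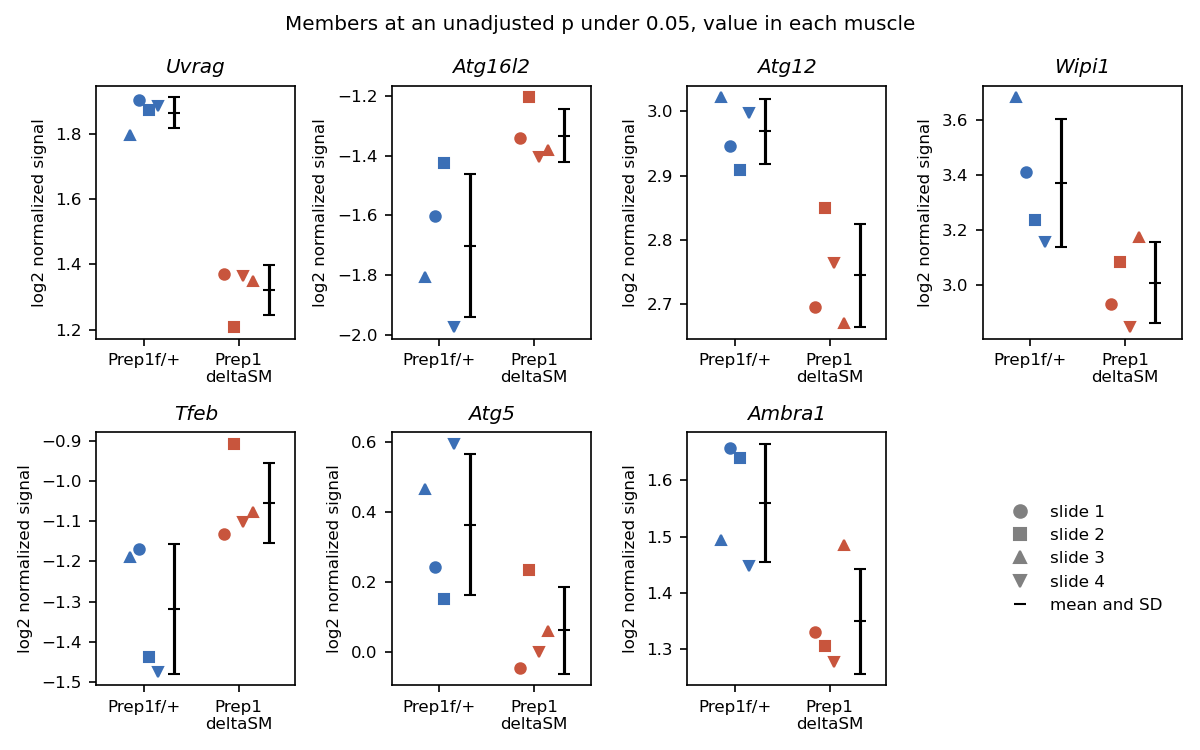
Log2 normalized signal of the 7 genes at an unadjusted p under 0.05 in each of the 8 muscles (blue Prep1f/+, red Prep1deltaSM), with the slide as the symbol and the group mean and SD beside the points. The groups of Uvrag, Atg16l2, Atg12 and Tfeb do not overlap; those of Wipi1, Atg5 and Ambra1 do. Each panel has its own axis, which does not start at 0.

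In the conjugation machinery, a part of the list, 3 of 7 genes had an unadjusted p under 0.05. Of these, 1 was higher, where 5.54% of all genes were, and 2 were lower, where 10.3% were. Atg7 activates the ubiquitin-like proteins, Atg3 and Atg10 pass them on, and Atg12 is joined to Atg5, which together with Atg16l1 sets where LC3 is attached. Of the 7 genes, 6 were lower (62.7% of all genes were), with a median of -0.16. The sign of Atg10 turned with normexp and quantile normalization and that of Atg12 in the authors' table, where another of its probes may have been read. None of the 7 passed the adjusted threshold.

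Atg12 read 3.02, 2.95, 2.91 and 3.0 in Prep1f/+ and 2.69, 2.85, 2.76 and 2.67 in Prep1deltaSM. No Prep1deltaSM value reached the lowest Prep1f/+ value, a difference of -0.22 ± 0.08 (adjusted p = 0.236). Its other probes did not share this: they differed by -0.03 ± 0.09 and 0.04 ± 0.09.

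Atg5 read 0.47, 0.24, 0.15 and 0.60 in Prep1f/+ and -0.05, 0.24, 0.00 and 0.06 in Prep1deltaSM. The groups overlapped through Prep1deltaSM replicate 2, which was above its slide partner, and the difference was -0.30 ± 0.12 (adjusted p = 0.28). The difference was -0.14 without Prep1f/+ replicates 1 and 4, which held its highest values. Atg7 differed by -0.22 ± 0.10, lower on all 4 slides, Atg3 by -0.16 ± 0.12 and Atg16l1 by -0.10 ± 0.08.

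Atg10 had 2 probes. The brighter differed by -0.03 ± 0.10. The dimmer (A_51_P378858) read -0.18, -0.08, -0.12 and -0.09 in Prep1f/+ and -0.71, -0.39, -0.57 and -0.34 in Prep1deltaSM. All Prep1deltaSM values of the dimmer probe were below the Prep1f/+ values, a difference of -0.39 ± 0.10 (adjusted p = 0.13 over all probes).

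Atg16l2, a relative of Atg16l1 whose part in autophagy is less clear, stood at the other end. It read -1.81, -1.60, -1.42 and -1.97 in Prep1f/+ and -1.34, -1.21, -1.40 and -1.38 in Prep1deltaSM. The groups were just apart, with Prep1f/+ replicate 3 close under the Prep1deltaSM values, and the difference was 0.37 ± 0.13 (adjusted p = 0.235). It was 0.17 with normexp and quantile normalization. Its only probe, and that of Tfeb, are shown because the higher values of both genes rest on a single probe each; both sequences can be read without a stop codon in all 3 forward frames.
Atg16l2 probe, mm9 chr7:108438916-108439146, minus strand: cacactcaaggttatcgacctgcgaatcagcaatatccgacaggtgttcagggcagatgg
Tfeb probe, mm9 chr17:47926621-47926680, plus strand: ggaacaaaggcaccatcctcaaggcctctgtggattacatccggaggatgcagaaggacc

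Atg4 proteases trim the Atg8 proteins before conjugation and free them afterwards. By their brightest probes, Atg4a differed by -0.13 ± 0.13, Atg4b by 0.13 ± 0.09, Atg4c by -0.24 ± 0.12 and Atg4d by 0.30 ± 0.13, so 2 were higher and 2 lower.

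The dim second probe of Atg4b read -2.96, -3.31, -3.07 and -3.21 in Prep1f/+ and -2.71, -2.64, -2.77 and -2.71 in Prep1deltaSM. All Prep1deltaSM values were above the Prep1f/+ values, with a difference of 0.43 ± 0.10 (adjusted p = 0.108 over all probes). The other Atg4c probes differed by 0.04 ± 0.14 and 0.67 ± 0.19. The last of these read -4.87, -4.34, -4.20 and -4.32 in Prep1f/+ and -3.38, -3.92, -3.74 and -4.02 in Prep1deltaSM. Its groups were apart, but it was well above background on only 2 of the 4 Prep1f/+ arrays. The other Atg4d probes differed by -0.10 ± 0.09 and 0.21 ± 0.15.

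The Atg8 proteins are the tags of the autophagosome itself, attached to its membrane by the conjugation systems. All 5 were lower by the brightest probe, from -0.17 to -0.01, though Map1lc3b and Gabarapl1 turned higher with either quantile normalization and Gabarapl2 with the mean of its probes. Adjusted p-values ran from 0.429 to 0.963.

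Map1lc3a (LC3A) read 4.87, 5.07, 4.79 and 4.82 in Prep1f/+ and 4.63, 4.91, 4.64 and 4.99 in Prep1deltaSM. Map1lc3b (LC3B), the usual marker of autophagosomes, read 5.67, 5.86, 5.87 and 5.50 in Prep1f/+ and 5.58, 5.69, 5.68 and 5.88 in Prep1deltaSM. In both genes the values were interleaved, with Prep1deltaSM replicate 4 among the highest and Prep1deltaSM replicate 1 among the lowest. The differences were -0.09 ± 0.12 for Map1lc3a and -0.01 ± 0.11 for Map1lc3b, with 95% confidence intervals of -0.36 to 0.17 and -0.27 to 0.24. The second Map1lc3b probe gave -0.03 ± 0.09.

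Gabarapl1, an Atg8 gene induced in wasting muscle, read 5.04, 5.34, 5.41 and 5.04 in Prep1f/+ and 4.89, 5.05, 5.03 and 5.61 in Prep1deltaSM. Prep1deltaSM replicate 4 was the highest of all 8 muscles and the other 3 were near or below the lowest Prep1f/+ values, with a difference of -0.06 ± 0.17 (adjusted p = 0.89). Its second probe differed by 0.29 ± 0.17. Gabarap differed by -0.17 ± 0.10, lower on all 4 slides, with -0.07 ± 0.10 at its second probe. Gabarapl2 differed by -0.09 ± 0.09, and by 0.20 ± 0.15 at its dim second probe.

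The second Gabarapl1 probe and the brighter Gabarap probe come from the same stretch of these related genes, and are shown because of this likeness. Over their 55 overlapping bases, 43 (78.2%) are identical, in capitals here, and the next most alike pair of probes between Atg8 genes shared 46.7% of its overlap. Whether the probes also capture each other's RNA was not tested.
Gabarap probe, mm9 chr11:69806196-69808013, plus strand: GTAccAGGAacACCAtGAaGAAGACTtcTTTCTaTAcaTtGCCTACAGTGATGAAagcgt
Gabarapl1 probe, mm9 chr6:129488695-129491167, plus strand: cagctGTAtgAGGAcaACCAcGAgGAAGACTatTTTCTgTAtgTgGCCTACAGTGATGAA

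Cargo receptors hold ubiquitin-tagged cargo on one side and Atg8 on the other. Sqstm1 (p62) read 7.27, 7.50, 7.45 and 7.20 in Prep1f/+ and 6.94, 6.98, 7.11 and 7.40 in Prep1deltaSM. Prep1deltaSM replicates 1 to 3 lay below every Prep1f/+ value and Prep1deltaSM replicate 4 among them, with a difference of -0.25 ± 0.13 (adjusted p = 0.366).

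Nbr1, the other receptor, was read by 3 probes, all higher in Prep1deltaSM. The brightest differed by 0.22 ± 0.13 (adjusted p = 0.434), and was higher on all 4 slides. The second (A_52_P14980) read -1.09, -1.39, -0.96 and -1.29 in Prep1f/+ and -0.62, -0.38, -0.63 and -0.80 in Prep1deltaSM. The dimmest (A_52_P348627) read -1.20, -1.28, -1.27 and -1.20 in Prep1f/+ and -0.83, -0.72, -0.70 and -0.87 in Prep1deltaSM. In both dimmer probes the groups were apart, with differences of 0.58 ± 0.13 (adjusted p = 0.108 over all probes) and 0.46 ± 0.08 (0.0971). In mm9 the 3 probes lie close together, at chr11:101442915-101442974 for the brightest, chr11:101442456-101442515 for the second and chr11:101441942-101442001 for the dimmest.

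Mitophagy is served by membrane receptors that bind Atg8 directly (Bnip3, Bnip3l and Fundc1) and by the kinase Pink1, which marks damaged mitochondria. Their brightest probes differed by -0.11 to 0.04. None of these 4 genes had groups apart or an unadjusted p under 0.05.

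Bnip3 read 5.12, 5.17, 5.36 and 4.91 in Prep1f/+ and 4.96, 5.34, 5.0 and 5.14 in Prep1deltaSM. Bnip3l (NIX) read 2.67, 2.45, 2.79 and 2.29 in Prep1f/+ and 2.44, 2.58, 2.57 and 2.54 in Prep1deltaSM. The Bnip3l values of the Prep1deltaSM muscles lay wholly inside the range of the Prep1f/+ muscles, and those of Bnip3 did too. The differences were -0.03 ± 0.13 for Bnip3 and -0.02 ± 0.12 for Bnip3l, and both turned to the other sign with quantile normalization. A second Bnip3l probe differed by 0.21 ± 0.12, and Fundc1 by 0.04 ± 0.08.

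Pink1 read 6.12, 6.13, 6.18 and 5.70 in Prep1f/+ and 5.79, 6.03, 5.72 and 6.14 in Prep1deltaSM. Prep1f/+ replicate 4 lay far below the rest of its group, at the level of the lowest Prep1deltaSM muscles. The difference was -0.11 ± 0.14 (adjusted p = 0.714), and -0.24 without Prep1f/+ replicates 1 and 4.

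At the lysosome, Tfeb encodes the factor that switches on lysosomal genes, and Lamp1 and Lamp2 are the main glycoproteins of the lysosomal membrane. Tfeb read -1.19, -1.17, -1.44 and -1.48 in Prep1f/+ and -1.13, -0.91, -1.10 and -1.08 in Prep1deltaSM. The groups were apart by a narrow margin, with Prep1f/+ replicates 1 and 2 close under the Prep1deltaSM values. Tfeb is on chromosome 17, as Pknox1 is. The difference was 0.26 ± 0.10 (adjusted p = 0.28), and it was 0.13 with normexp and quantile normalization.

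Lamp2 read 2.98, 2.92, 3.22 and 2.86 in Prep1f/+ and 2.86, 2.85, 2.97 and 2.66 in Prep1deltaSM. The values overlapped, with the highest in Prep1f/+ replicate 3 and the lowest in Prep1deltaSM replicate 4, and the difference was -0.16 ± 0.11 (adjusted p = 0.487). A second Lamp2 probe differed by -0.28 ± 0.12 (adjusted p = 0.263 over all probes) and the dimmest one by 0.01 ± 0.14. Lamp1 differed by -0.20 ± 0.10 (adjusted p = 0.38) and was lower on all 4 slides.

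Probes of the same gene often disagreed. Of the 20 genes with more than 1 tested probe, 12 had probes of both signs (49.6% of 5851 such genes on the array did), and in 3 (Atg4c, Rb1cc1 and Ulk2) the probes were more than 0.5 apart. Over all 69 probes, 8 were higher at an unadjusted p under 0.05 where 9.66% of all probes were, and 8 lower where 8.09% were. Groups were apart in 8 higher probes (6.43% of all probes) and 4 lower ones (5.35%), and none passed the adjusted threshold. Among the 8 higher probes and the 3 genes is Atg4c, through a single dim probe. That probe was well above background on 2 Prep1f/+ and 4 Prep1deltaSM arrays.

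The sign of the difference ran with the signal of the probe. With all tested probes split by signal into 4 bins of equal size, from dim to bright, the probes of these genes numbered 7, 13, 19 and 30, and their median differences were 0.19, 0.20, -0.02 and -0.10. The medians of all probes ran the same way but less far, at 0.03, 0.02, -0.02 and -0.07. After quantile normalization the medians of all probes were 0.02, 0.02, -0.002 and -0.005. Of the 8 higher probes at an unadjusted p under 0.05, 7 were in the dimmer pair of bins, and of the 8 lower ones, 7 were in the brighter pair. All probes leaned the same way. From dim to bright, 10.7%, 12.8%, 10.7% and 4.44% of them were higher at that p, and 5.59%, 7.53%, 8.98% and 10.3% were lower. The part of probe signal in the differences of single genes was not tested.

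**Figure D4:**
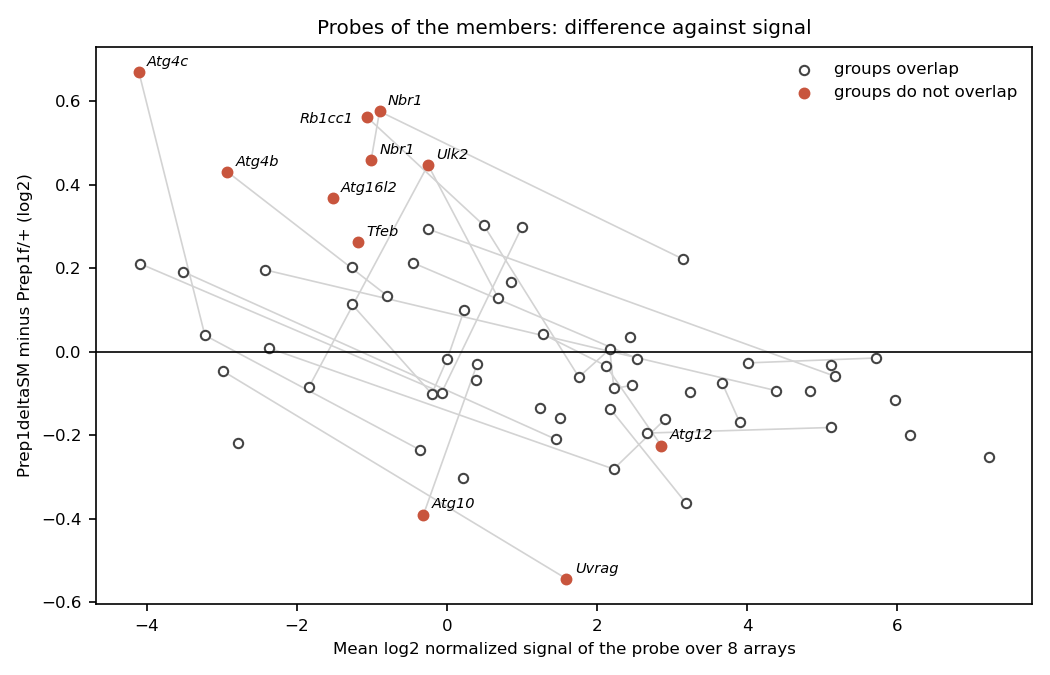
Difference (Prep1deltaSM minus Prep1f/+, log2) of each of 66 of the tested probes against its mean log2 normalized signal over the 8 arrays; filled points are probes whose groups do not overlap, and grey lines join probes of the same gene. Of the 8 higher filled probes, 7 are in the dimmer pair of signal bins, the 3 lower ones are Uvrag, Atg12 and Atg10, and many lines cross 0. Of all tested probes, 10.7%, 12.8%, 10.7% and 4.44% were higher at an unadjusted p under 0.05, from the dimmest bin to the brightest.

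Among 30 other autophagy genes the median difference was -0.05, with 10 higher and 20 lower, where 62.7% of all genes were lower. In each direction 2 had an unadjusted p under 0.05, where 5.54% of all genes were higher and 10.3% lower at that p. The smallest p belonged to Atg2b, a lipid transfer protein of the growing membrane, with a difference of 0.50 ± 0.12 (adjusted p = 0.165). Zfyve1, which marks the membrane where autophagosomes form, differed by -0.33 ± 0.08 (0.17), Sh3glb1, a partner of Uvrag and Beclin 1, by 0.43 ± 0.13 (0.195), and Chmp2b, of the ESCRT complex that seals membranes, by -0.27 ± 0.08 (0.201). The groups of Atg2b, Zfyve1 and Chmp2b did not overlap, nor did those of Stx17, which differed by -0.13 ± 0.07 (0.382). These are 4 of the 30 genes, where 10.5% of all genes were apart.

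Of 13 other mitophagy and mitochondrial dynamics genes, 7 were higher and 6 lower, where 62.7% of all genes were lower, with a median of 0.01. Pgam5, a phosphatase of mitochondria, was the only gene of the 13 with an unadjusted p under 0.05, where 5.54% of all genes were higher at that p. It differed by 0.48 ± 0.10 (adjusted p = 0.132) with groups apart, where 10.5% of all genes were. Bcl2l13, a mitophagy receptor, differed by -0.18 ± 0.09, the fusion gene Mfn2 by 0.16 ± 0.12 and Tomm7, a subunit of the import pore, by -0.13 ± 0.11.

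Of 26 lysosome genes, 15 were lower and 11 higher, where 62.7% of all genes were lower, and the median difference was -0.05. The 3 with the smallest p were parts of the proton pump that acidifies the lysosome, all with groups apart: Atp6v1a differed by 0.34 ± 0.08 (adjusted p = 0.146), Atp6v1b2 by 0.48 ± 0.11 (0.157) and Atp6ap1 by 0.35 ± 0.10 (0.193). The pump genes Atp6v0d1, Atp6v1h and Atp6v0e differed by 0.15, 0.10 and -0.20, with overlap. Glb1, the lysosomal galactosidase, differed by -0.51 ± 0.18 (0.242). Neu1 differed by -0.10 ± 0.07 (0.514) and was lower with groups apart. Groups were thus apart in 4 of the 26, where 10.5% of all genes were.

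Of 24 upstream regulators, 17 were higher and 7 lower, where 62.7% of all genes were lower, with a median of 0.05. Averaged per array and centred, the list ran from -0.15 to 0.05 in Prep1f/+ and from -0.08 to 0.19 in Prep1deltaSM. The value of 0.19 was that of Prep1deltaSM replicate 4. Prkaa1, a catalytic subunit of the energy sensor AMPK, differed by -0.31 ± 0.09 (adjusted p = 0.19) and Rragc, which brings mTORC1 to the lysosome, by 0.29 ± 0.10 (0.226), both with groups apart. Groups were apart in these 2 of the 24, where 10.5% of all genes were. Bcl2, which binds Beclin 1, differed by -0.30 ± 0.17, and Flcn, which acts on the Rag proteins, by 0.41 ± 0.23. No gene of these 4 lists passed the adjusted threshold.

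Lists of markers of other cells in the muscle were also read, and no marker passed the adjusted threshold. Of 9 fibroblast markers 8 were lower (median -0.42), as were all 7 tendon markers (median -0.53), all 9 tested macrophage and leukocyte markers (median -0.47) and all 6 tested adipocyte markers (median -1.03). Over all genes, 62.7% were lower. At an unadjusted p under 0.05, 4, 1, 3 and 0 markers of these lists were lower, in that order, where 10.3% of all genes were. At that p, 0 markers of these lists were higher. Averaged per array and centred, the fibroblast list ran from -0.11 to 0.38 in Prep1f/+ and from -0.66 to 0.33 in Prep1deltaSM. The tendon list ran from -0.09 to 0.47 and from -1.01 to 0.35, the leukocyte list from -0.02 to 0.45 and from -0.55 to 0.20, and the adipocyte list from -0.70 to 1.27 and from -2.21 to 1.16. The 36 autophagy and mitophagy genes, averaged the same way, ran from -0.09 to 0.11 in Prep1f/+ and from -0.13 to 0.04 in Prep1deltaSM. Erythroid markers were higher in 3 of the 4 tested (median 0.94), with array means of -0.90 to 0.74 in Prep1f/+ and -0.35 to 1.58 in Prep1deltaSM. The other lists had both signs, with 3 of 7 endothelial markers higher (median -0.05), 3 of 6 smooth muscle and pericyte markers (median 0.02), 2 of 6 tested satellite cell markers (median -0.14) and 4 of 7 Schwann cell markers (median 0.0015). Among the markers of these other lists, Cdh15 of satellite cells was lower with groups apart (-0.64 ± 0.10, adjusted p = 0.0897, limma). Acta2 (0.44 ± 0.11) and Myh11 (0.44 ± 0.12) of smooth muscle and Tek of endothelium (0.39 ± 0.13) were higher with groups apart. Over all genes, 10.5% were apart. Every range of array means given here overlapped between the groups, and the part of these cells in the differences was not tested.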

How the data were processed

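Cy3-labelled RNA was hybridised to 1-colour Agilent arrays, with each of the 8 taken as a single mouse. The spot intensity deposited by the authors comes, per the file headers, from Feature Extraction 10.5.1.1 and is background-subtracted but not normalized between arrays; the submitters' processing notes name 9.1, and it is unsettled which version produced them. The authors' own table of processed intensity is on a linear scale and uncentred (medians 12.7 to 13.2 per array). Of its 32812 rows, 26230 lay within 0.1 log2 of quantile-normalized scanner values; these served as an alternative and cover 24 of the genes.

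Each log2 intensity was set against the 75th percentile of its array, taken over all non-control spots, the non-uniform ones included. Non-uniform spots were themselves dropped, and the remaining spots of a probe were averaged. A probe was kept if well above background on 4 or more arrays, and a gene was read by its brightest probe; every probe was also fitted singly. The test was limma 3.58.1 (lmFit, eBayes, in R 4.3.3) with Benjamini-Hochberg adjustment. The same fit was also run on values simulated from the gene means and SDs of these data. Gene names are the array's; 37 of the 38 are symbols in the RefSeq table of GRCm38.p6 and 1 is a synonym there. Probe coordinates are in mm9, as the file headers state, and promoters are RefSeq's.

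All 8 values were printed for genes at an unadjusted p under 0.05 or with groups apart and for a set of central genes, probes singly where they disagreed, and up to 4 genes with the smallest p from each other pathway list. The members and lists were chosen with earlier results of these data known. Alternatives changed the background correction, scaling, filter, probe rule or fit, used the authors' values, added the slide as a block, or left out an array. Protein sequences were not used here, and 1 gene of the list, which the counts include, is not reported here.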

Additional observations from a re-analysis of the deposited data

Results flagged for a closer look

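In 2 of the 74 groups of 4 muscles examined (36 autophagy and mitophagy genes and Pknox1, in each genotype), a single muscle lay far from the other 3, by the gap to its neighbour divided by the range of the group, against Dixon's 95% critical value. Chance gives about 1 in 20 such groups, or 3.7. Uvrag was lowest in Prep1deltaSM replicate 2, at 1.21 where the others were 1.35 to 1.37 (ratio 0.865). Without that muscle Uvrag differed by -0.51 (adjusted p = 0.279, limma). Pink1 was lowest in Prep1f/+ replicate 4, at 5.70 where the others were 6.12 to 6.18 (ratio 0.878).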

How the results depend on the processing

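Of 636 values of the 36 genes under up to 18 alternatives, 33 turned sign, in 12 genes, and 24 genes kept theirs. With normexp and quantile normalization the turned values were 0.015 (Atg10), 0.039 (Bnip3), 0.059 (Bnip3l), 0.011 (Gabarapl1) and 0.048 (Map1lc3b). Quantile normalization alone gave 0.033 (Bnip3), 0.045 (Bnip3l), 0.0040 (Gabarapl1) and 0.051 (Map1lc3b), and the mean of a gene's probes 0.16 (Atg4c), 0.098 (Bnip3l), 0.12 (Gabarapl1), 0.052 (Gabarapl2) and 0.11 (Rb1cc1). In the authors' table, a gene was read by the brightest probe with a matching row, which need not be the main fit's probe. The turned values there were 0.018 (Atg12), 0.65 (Atg4c), 0.036 (Bnip3), -0.089 (Ulk2) and -0.089 (Wipi2). For Atg4c the value lay near the 0.67 of its dimmest probe in the main scaling, not the -0.24 of its brightest. With an array left out, differences ran from -0.073 to 0.028 (Atg10), -0.11 to 0.043 (Bnip3), -0.10 to 0.063 (Bnip3l), -0.00092 to 0.059 (Fundc1), -0.21 to 0.026 (Gabarapl1), -0.088 to 0.033 (Map1lc3b) and -0.20 to 0.018 (Rb1cc1). Genes past the adjusted threshold numbered 1, Uvrag, with normexp and quantile normalization and with a trended robust fit, and 0 otherwise. Over all 16016 genes, 26 and 20 passed in those settings, in that order. Genes higher at an unadjusted p under 0.05 numbered 4 with either quantile setting, 1 with median centring, 1 with no filter, 4 with the mean of probes, 7 with every probe, 1 with slide as a block, 1 without Prep1f/+ replicates 1 and 4, and 0 to 3 with an array left out. Over these settings, 3.14% to 9.66% of all genes (with every probe, of all probes) were higher. With every probe, a gene was counted if any of its probes met the rule, so that count is not comparable with a share of probes. Lower ones numbered 3 with quantile normalization, 3 with no filter, 3 with the mean of probes, 8 with every probe, 2 in the authors' table, 2 with slide as a block and 1 to 8 with an array left out. Over those settings, 5.94% to 11.5% of all genes (with every probe, of all probes) were lower. Genes with groups apart numbered 2 with median centring (8.92% of all genes) and 5 to 12 with an array left out (12.6% to 18.0%). Without Prep1f/+ replicates 1 and 4, an alternative chosen after seeing the data, they numbered 16 (31.4%). With every probe, 11 genes had a probe with groups apart. By probe this was 8 higher and 4 lower of 69, where 11.8% of all probes were apart. Pknox1 differed by -1.76 with slide as a block (adjusted p = 0.062), by -1.78 without Prep1f/+ replicates 1 and 4 (0.0605), and by -1.84 to -1.68 with an array left out. The causes were not tested. No paired analysis was possible by replicate number, because those numbers follow accession order and pair no mice; slide, which held an array of each group, was the block used. Dim signal limits Atg4c, whose probe with the largest difference was well above background on only 2 of 4 Prep1f/+ arrays.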
